A study of Mus musculus with 18 samples.

Results

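The fatty acid oxidation genes of adipose tissue were examined in Csn8AKO mice as a set of 41 genes, taken by symbol from the 55487 genes counted in every library. The set held 16 genes of the mitochondrial arm (the carnitine shuttle and mitochondrial beta-oxidation), 15 genes of the peroxisomal arm (peroxisomal oxidation, protein import and the ABCD transporters) and 10 genes that belonged to neither arm alone, because their products are found in both organelles or act before or beside both. All 41 symbols were present once in the counts. The question was whether the 2 arms differed between genotypes in the same way, within subcutaneous white adipose tissue (sWAT) and within brown adipose tissue (BAT).

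Bulk RNA-seq was performed on 18 libraries, 1 mouse per library, all male and fasted for 4 h on chow. Control mice (Ctrl, genotype WT in the labels) were Csn8 f/f littermates without Cre, and Csn8AKO mice (labelled Csn8A KO) carried the same floxed allele with a Cre driven by the adiponectin promoter, which removes exons 4 to 6 of Csn8 (gene symbol Cops8) in adipocytes. Subcutaneous adipose tissue came from 4 Ctrl and 4 Csn8AKO mice at 12 weeks of age, and BAT from 5 Ctrl and 5 Csn8AKO mice at 4 weeks of age. Tissue and age therefore cannot be told apart, and p-values measure the spread between these mice. Cre is expressed in adipocytes, so other cells of the tissue should keep Csn8, and in bulk tissue fewer cells of a type and less RNA per cell cannot be told apart.

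Long-chain fatty acids enter mitochondria as carnitine esters, through the outer-membrane carnitine palmitoyltransferase CPT1, the carnitine-acylcarnitine translocase and CPT2, and are then shortened by repeated cycles of dehydrogenation, hydration, a further dehydrogenation and thiolysis. Peroxisomes take up very-long-chain and branched acyl-CoAs through ABCD transporters, shorten them with oxidases that make hydrogen peroxide, and hand the products on to mitochondria, while peroxins bring the enzymes into the organelle. Brown adipocytes burn fatty acids to make heat and are rich in both organelles.

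Total gene counts were 15835721 to 23109603 per sWAT library and 26658593 to 66719937 per BAT library. Markers of adipocytes were present in all libraries, and summed brown adipocyte markers were 3369.5 to 6920.1 CPM (normalised read counts, scaled to a common library size and by the trimmed mean of M values) in Ctrl BAT against 150.3 to 222 CPM in Ctrl sWAT. Cops8, the deleted gene, was 36.5 to 44.6 CPM in Ctrl BAT and 28.2 to 36.9 CPM in Csn8AKO BAT (log2 fold change -0.30, edgeR adjusted p = 0.0211), and 33.9 to 36.2 against 29.2 to 36.05 CPM in sWAT (log2 fold change -0.12, adjusted p = 0.623). This count covers the exons that were kept and the cells without Cre. In Csn8AKO BAT, replicate 2 stood apart from the other 4 libraries in 25 of the 41 genes, always on the high side, and carried 15.1% ribosomal RNA against 1.06% to 4.10% in the others. In Csn8AKO sWAT, replicate 2 was the lowest library for most genes of the set and had the lowest adipocyte marker sum (8763 CPM against 18329 to 20344 CPM in the other Csn8AKO libraries) and the highest lymphocyte marker sum (542 CPM). Results are given with and without these libraries. Both were picked out partly by the values of these same genes, so p-values without them are a description.

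Some members share reads or exons with other annotated genes, which limits their values. Cpt1b shares 81.4% of its exon bases with the overlapping gene Gm44502, and Etfb shares 53.0% with Gm45233. Both partners held almost no counts. Only unambiguous reads were counted, so reads in these shared exons may be missing from both genes, which would lower the levels given for Cpt1b and Etfb. On the opposite strand, Acadvl shares 42.9% of its exon bases with Dvl2 and Pex14 shares 28.3% with Gm17029, and whether counting used strand is not given in the sources used here. Near-identical copies match 21.8% of the 100-base windows of Scp2 (pseudogene Scp2-ps2), 19.3% of those of Acaa1b (Acaa1a), 17.1% of those of Acot2 (Acot1) and 14.8% of those of Hadhb (pseudogene Gm13910).

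In Ctrl mice, 37 of the 41 genes were higher in BAT than in sWAT with no overlap between libraries, against 23.8% of all 22509 genes tested, and 2 were lower with no overlap, against 22.1%. Levels between genes and tissues are given as CPM per kilobase of exon, scaled over all 18 libraries together. The median ratio of BAT to sWAT was 3.95 over the 41 genes, 6.34 in the mitochondrial arm and 1.82 in the peroxisomal arm. The highest ratio belonged to Acot11, a thermogenesis-associated acyl-CoA thioesterase (1.24 ± 1.05 CPM per kb in sWAT, SD, n = 4, and 71.1 ± 19.99 in BAT, SD, n = 5). Next came Cpt1b, the muscle-type CPT1, with 0.139 ± 0.0229 in sWAT and 6.27 ± 1.04 in BAT. Reads in the exons that Cpt1b shares with Gm44502 may be missing from its levels.

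The genes that ran the other way were Abcd2 and Cpt1a. Abcd2, a peroxisomal transporter of very-long-chain acyl-CoAs, was 87.0 ± 9.96 CPM per kb in Ctrl sWAT and 5.03 ± 0.900 in Ctrl BAT. Cpt1a, the liver-type CPT1, was 10.8 ± 0.807 in sWAT and 3.37 ± 0.387 in BAT, where it was the lowest of the 41 genes. Scp2, whose products include the peroxisomal sterol carrier protein X thiolase, and Cat, the peroxisomal catalase, overlapped between the tissues. In Ctrl BAT the most abundant transcripts per length were those of Acadl, the long-chain acyl-CoA dehydrogenase (811 ± 74.2), Etfa (376 ± 15.0), Acadvl (375 ± 27.7), Acadm (364 ± 47.5) and Cat (285 ± 40.7 CPM per kb). The ranges of Etfa, Acadvl and Acadm overlapped. In Ctrl sWAT the leading transcripts were those of Cat (231 ± 43.0), Acsl1, which activates long-chain fatty acids (167 ± 35.7), and Scp2 (99.3 ± 12.4 CPM per kb).

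**Figure D1:**
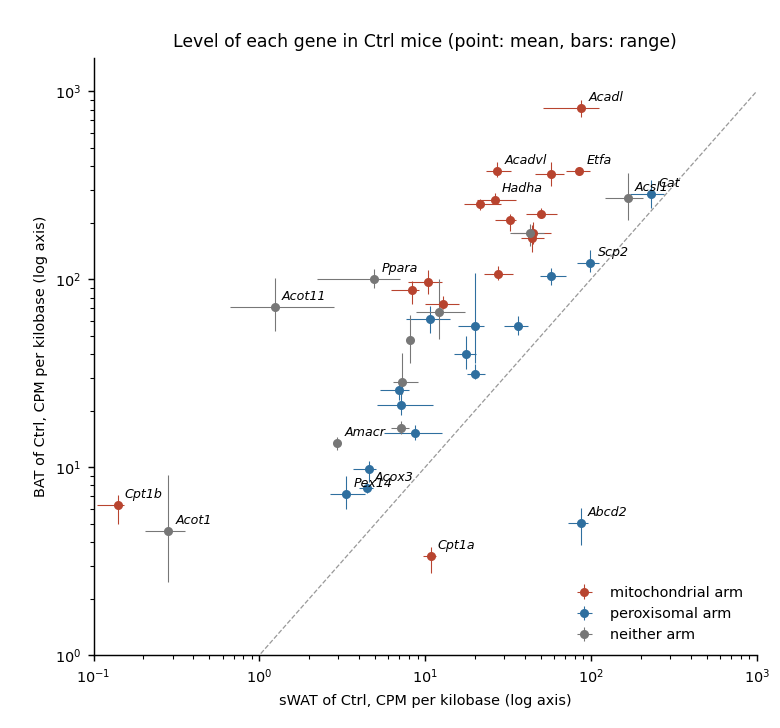
Level of each of the 41 genes in Ctrl sWAT (x axis) and Ctrl BAT (y axis), in CPM per kilobase of exon on log axes, with points at the mean of 4 and 5 libraries and bars over their range. The dashed line marks equal levels. Most genes lie above it, and Abcd2 and Cpt1a lie below it.

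In sWAT, 4 genes were lower in Csn8AKO mice at an edgeR adjusted p under 0.05, and all belonged to the mitochondrial arm: Cpt2, Slc25a20, Hadhb and Eci1. This split by arm depended on the processing. Scaled by library size alone, 0 mitochondrial genes and 1 peroxisomal gene were lower, beside 328 of 18843 genes. Of the 40 genes tested, 35 had a log2 fold change below 0, with a median of -0.54 against 0.03 over all genes. The 4 lower genes stand beside a background of 3.00% of all 18843 genes, and none of the 40 was called higher, against 2.30%. At an unadjusted p under 0.05, 25 were lower and 3 higher (Cpt1a, Acaa1b and Acsl5). DESeq2 called 9 lower and 1 higher, and limma voom 11 lower and 2 higher. Over all genes, the unadjusted threshold gave 1976 lower and 1862 higher of 18843. DESeq2 gave 976 and 846 of 36938, and limma voom 1078 and 1077 of 18843. The DESeq2 total holds every gene with any count, without the low-count filter of edgeR and limma voom, so its share is not comparable with theirs. These backgrounds also stand beside the sWAT counts by arm and by list given below. Libraries of the 2 genotypes did not overlap in 17 genes that were lower in Csn8AKO mice, against 8.23% of all genes, and in 0 that were higher, against 5.80%. Cpt1b was not tested in sWAT, where it had 3 to 15 counts per library.

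**Figure D2:**
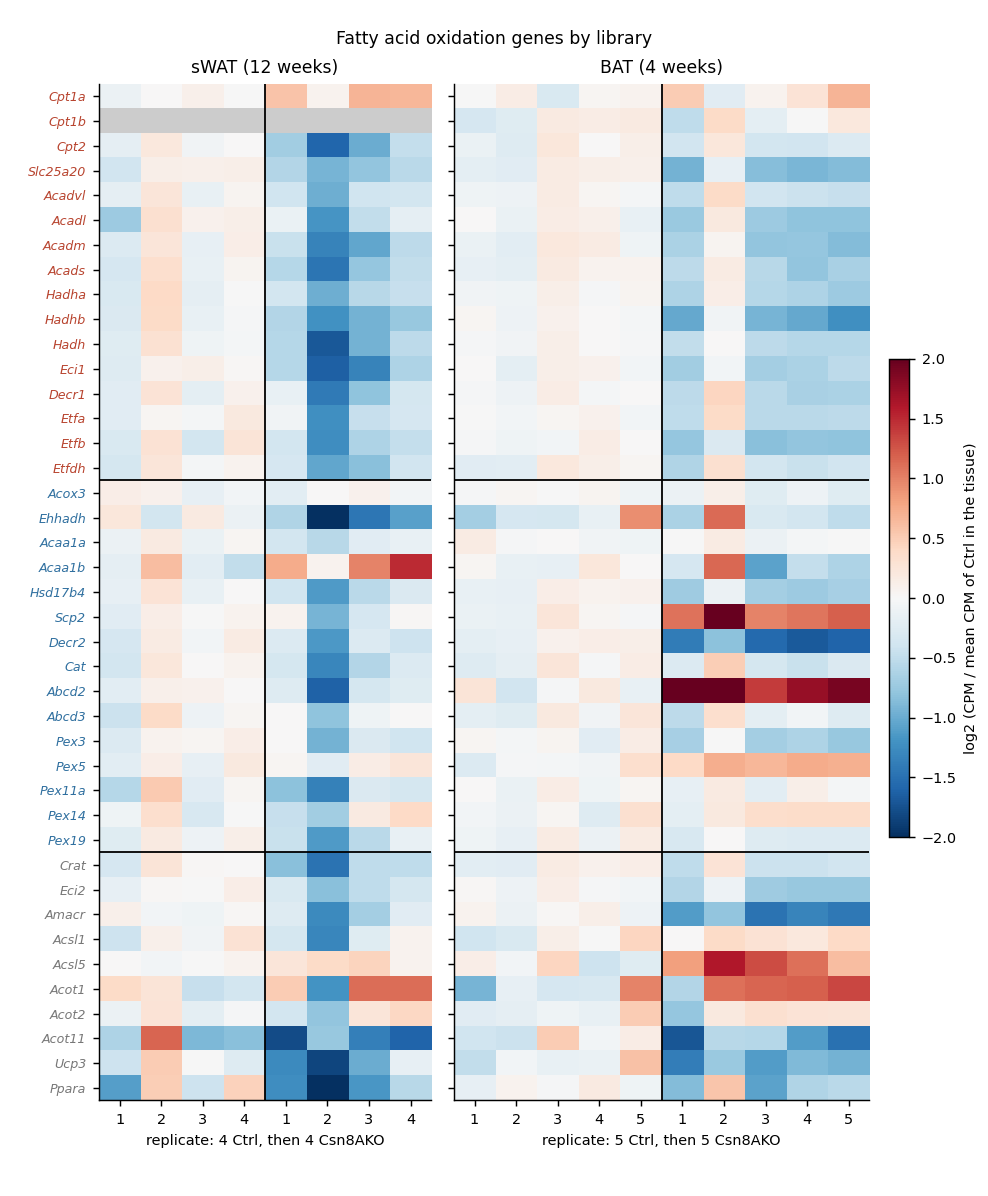
Heat map of the 41 genes (rows; names in red for the mitochondrial arm, blue for the peroxisomal arm, grey for neither) in each of the 18 libraries (columns), as log2 of CPM over the mean Ctrl CPM of the same tissue, with colours stopping at 2 in either direction and Cpt1b in sWAT left grey because it was not tested. Csn8AKO sWAT is below Ctrl in most rows, and replicate 2 of Csn8AKO BAT differs from the other 4 Csn8AKO BAT libraries in most rows of the mitochondrial arm.

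The carnitine shuttle held 2 of the 4 sWAT calls. Cpt2 (ENSMUSG00000028607, chromosome 4, 107903981 to 107923610, minus strand, GRCm38), the inner-membrane enzyme that turns acylcarnitine back into acyl-CoA, was 96.4, 126, 104 and 109 CPM in Ctrl sWAT and 66.9, 36.1, 54.8 and 77.9 CPM in Csn8AKO sWAT. Every Csn8AKO library was below every Ctrl library, and Cpt2 fell (log2 fold change -0.89, SE 0.22, adjusted p = 0.0419, where SE is the standard error). Slc25a20 (ENSMUSG00000032602, chromosome 9, 108662088 to 108684641, plus strand), the carnitine-acylcarnitine translocase, was 32.1, 45.3, 44.9 and 45.3 CPM in Ctrl sWAT and 28.0, 22.0, 24.2 and 28.9 CPM in Csn8AKO sWAT. The groups did not overlap, although Ctrl replicate 1 was close to the highest Csn8AKO library, and Slc25a20 fell (log2 fold change -0.70, SE 0.15, adjusted p = 0.0314). Cpt1a stood apart from the rest of its arm, with 78.6, 85.6, 91.3 and 84.7 CPM in Ctrl sWAT and 126, 89.7, 137 and 135 CPM in Csn8AKO sWAT. Only Csn8AKO replicate 2 lay within the Ctrl range, and the difference did not pass the test with all libraries (log2 fold change 0.52, SE 0.15, adjusted p = 0.0823) but did without that library (log2 fold change 0.64, adjusted p = 0.0085).

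Among the enzymes of the mitochondrial spiral, Hadhb was the clearest. Hadhb (ENSMUSG00000059447, chromosome 5, 30155248 to 30184593, plus strand), the thiolase subunit of the mitochondrial trifunctional protein, was 119.9, 190.2, 131 and 143 CPM in Ctrl sWAT and 97.3, 63.0, 75.6 and 86.8 CPM in Csn8AKO sWAT. All 4 Csn8AKO libraries lay below all Ctrl libraries, and Hadhb fell (log2 fold change -0.86, SE 0.19, adjusted p = 0.0291). Its partner Hadha, which carries the hydratase and long-chain hydroxyacyl-CoA dehydrogenase activities, did not overlap between genotypes but was not called (log2 fold change -0.57, SE 0.19, adjusted p = 0.126). Eci1 (ENSMUSG00000024132, chromosome 17, 24426641 to 24439348, plus strand), an enoyl-CoA isomerase for unsaturated chains, was 59.7, 75.6, 77.5 and 72.6 CPM in Ctrl sWAT and 48.0, 23.1, 28.2 and 46.7 CPM in Csn8AKO sWAT. The lowest Ctrl library was above the highest Csn8AKO library, and Eci1 fell (log2 fold change -0.97, SE 0.23, adjusted p = 0.0401).

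Apart from Cpt1a, the other genes tested in this arm were also below 0 in sWAT without passing the test. The acyl-CoA dehydrogenases of medium, short and very long chains did not overlap between genotypes, with log2 fold changes of -0.79 for Acadm, -0.78 for Acads and -0.51 for Acadvl and adjusted p-values of 0.0659, 0.0749 and 0.109. Hadh, the medium- and short-chain hydroxyacyl-CoA dehydrogenase, was -0.86 (adjusted p = 0.0757). Acadl, Decr1, which reduces dienoyl-CoAs, and Etfa, Etfb and Etfdh, which pass electrons from the dehydrogenases to the respiratory chain, ranged from -0.44 to -0.64, with Etfb the only one of the 5 without overlap. Over the 15 genes tested, the median was -0.64, 4 were called lower and 10 did not overlap. DESeq2 called 7 lower and 1 higher, and limma voom 8 and 1.

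Transcription of Hadha and Hadhb starts from opposite strands of one short stretch of chromosome 5, and the window around the start of Hadhb is shown because the pair encodes the 2 subunits of one enzyme complex and is compared here. In the RefSeq annotation of GRCm38.p6 the windows from 250 bases before to 50 bases after each start, chr5:30154931-30155230 on the minus strand for Hadha and chr5:30155003-30155302 on the plus strand for Hadhb, share 228 bases, which are in capitals here.
Hadhb: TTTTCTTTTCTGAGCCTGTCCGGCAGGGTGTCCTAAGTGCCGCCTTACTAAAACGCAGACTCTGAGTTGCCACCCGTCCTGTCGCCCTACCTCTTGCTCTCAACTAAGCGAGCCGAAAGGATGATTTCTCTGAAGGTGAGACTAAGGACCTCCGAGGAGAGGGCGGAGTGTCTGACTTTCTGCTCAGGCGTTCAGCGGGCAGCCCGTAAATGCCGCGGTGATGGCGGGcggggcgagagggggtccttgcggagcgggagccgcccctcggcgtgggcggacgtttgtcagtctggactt

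In the peroxisomal arm of sWAT no gene passed the test. Of the 15 genes, 13 were below 0, with a median of -0.36, and 4 did not overlap between genotypes. At an unadjusted p under 0.05, 7 were lower and 1 higher, DESeq2 called 1 lower and 0 higher, and limma voom 1 lower and 1 higher. Ehhadh, the peroxisomal bifunctional enzyme, had the lowest value of the arm, with 71.8, 47.4, 69.7 and 56.9 CPM in Ctrl sWAT and 40.7, 12.9, 22.5 and 29.0 CPM in Csn8AKO sWAT. The groups did not overlap, but the adjusted p stayed just above the threshold (log2 fold change -1.22, SE 0.31, adjusted p = 0.0523). Without Csn8AKO replicate 2, Ehhadh passed the test (log2 fold change -0.99, adjusted p = 0.0245).

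Abcd2 was 461, 575, 564 and 534 CPM in Ctrl sWAT and 448, 174, 418 and 451 CPM in Csn8AKO sWAT. Although no Csn8AKO library reached the lowest Ctrl library, 3 of them lay between 418 and 451 CPM, and Abcd2 was not called (log2 fold change -0.52, SE 0.28, adjusted p = 0.336). Hsd17b4, the peroxisomal D-bifunctional protein, and Acaa1a, a peroxisomal thiolase, also did not overlap (-0.55 and -0.32, adjusted p = 0.137 and 0.217). Scp2 (-0.24), Abcd3, another peroxisomal transporter (-0.18), Cat (-0.57), Decr2, the peroxisomal dienoyl-CoA reductase (-0.49), and Acox3, a branched-chain acyl-CoA oxidase (-0.04), overlapped between genotypes. The peroxins Pex3 and Pex19, which insert membrane proteins, Pex5 and Pex14, the import receptor and its docking partner, and Pex11a, which elongates the organelle, ranged from -0.65 to 0.06, all overlapping. Acaa1b, a paralog of Acaa1a, was 0.91 with all libraries (adjusted p = 0.143) and was called higher without Csn8AKO replicate 2 (log2 fold change 1.10, adjusted p = 0.0437).

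Of the 10 genes outside both arms, none passed the test in sWAT, 3 were without overlap and the median was -0.52, with 6 lower and 1 higher at an unadjusted p under 0.05, 1 lower by DESeq2 and 2 lower by limma voom. The 3 genes without overlap encode enzymes found in both organelles, namely Crat, the carnitine acetyltransferase (-0.78, adjusted p = 0.0749), Eci2, an enoyl-CoA isomerase (-0.49, adjusted p = 0.0866), and Amacr, the racemase for branched-chain acyl-CoAs (-0.55, adjusted p = 0.229). Ppara, the nuclear receptor that drives much of this pathway, was 9.05, 27.4, 14.6 and 26.7 CPM in Ctrl and 8.24, 2.67, 8.69 and 13.2 CPM in Csn8AKO sWAT, overlapping (log2 fold change -1.25, SE 0.50, adjusted p = 0.2). Ucp3, a mitochondrial carrier related to Ucp1, and Acot11 were -0.94 and -1.32 (adjusted p = 0.164 and 0.168), the latter with 1 Ctrl library far above the rest. The acyl-CoA synthetases Acsl1 and Acsl5 were -0.37 and 0.29, and the thioesterases Acot1 and Acot2 were 0.60 and -0.05.

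The sWAT calls rested on few libraries. Without Csn8AKO replicate 2, 7 genes were lower, against 3.51% of 19197 genes, and 2 were higher, against 4.19%, the 4 first calls included and Hadh, Ehhadh and Crat added. The medians were then -0.50 in the mitochondrial arm and -0.24 in the peroxisomal arm. By edgeR, none was called lower without Ctrl replicate 2, 3 or 4 or without Csn8AKO replicate 3, and 3 were called lower without Ctrl replicate 1 or without Csn8AKO replicate 1. Adipocyte markers were lower in the same libraries, with summed levels of 29047 to 36963 CPM in Ctrl and 8763 to 20344 CPM in Csn8AKO sWAT, 6 of 15 markers called lower and a median log2 fold change of -1.06. Macrophage markers were higher, with 8 of 12 called and sums of 690.2 to 1031 against 1131 to 1968 CPM. Brown adipocyte markers were 150.3 to 222 CPM in Ctrl and 51.4 to 116 CPM in Csn8AKO sWAT without overlap, with 3 of 8 tested called lower, 0 higher and a median log2 fold change of -1.05. Fibroblast and progenitor markers summed to 8935 to 10469 against 9323 to 16666 CPM, with 1 of 8 called higher and 6 higher at an unadjusted p under 0.05. Skeletal muscle markers summed to 242.6 to 3650 CPM in Ctrl (highest in replicate 3) and 63.0 to 2206 CPM in Csn8AKO sWAT (highest in replicate 4). All 14 were below 0, with a median of -0.85 and 0 called. Without these 2 libraries, 0 members were called, beside 385 of 19370 genes. The part of these cell types in the lower oxidation genes was not tested. Ribosomal RNA genes took 1.80% to 19.8% of the counts in Ctrl and 3.96% to 47.8% in Csn8AKO sWAT, highest in Csn8AKO replicates 3 and 4 (31.8% and 47.8%), and with these genes left out, 4 members were again lower and 0 higher.

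In BAT, 19 of the 41 genes passed the test, 15 lower in Csn8AKO mice, against 15.8% of all 22345 genes, and 4 higher, against 16.0%. In the mitochondrial arm every call was lower, with Hadhb, Slc25a20 and Etfb in front, while the peroxisomal arm had calls on both sides, with Scp2, Abcd2 and Pex5 higher and Decr2, Hsd17b4 and Pex3 lower. The median over the 41 genes was -0.25 against 0.01 over all genes, and 30 of 41 were below 0. Groups did not overlap in 5 lower genes (Etfb, Decr2, Amacr, Acot11 and Ucp3), against 10.9% of all genes, and in 4 higher genes (Scp2, Abcd2, Pex5 and Acsl5), against 10.1%. Library-size scaling alone gave the same counts of 15 and 4, although the split of calls over all genes went from 49.7% to 33.3% lower.

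In BAT, Csn8AKO replicate 2 was within or above the Ctrl range for every mitochondrial gene but Etfb. Without it, 26 genes were lower, against 18.0% of 22826 genes, and 5 were higher, against 17.7%, and all 19 first calls were kept. The 12 genes added were Cpt2, Acadvl, Acads, Decr1, Etfa, Etfdh, Acaa1b, Cat, Pex19, Crat and Ppara, all lower, and Cpt1a, higher. The median over the 41 genes was then -0.45. Because this library was picked out by the values of these same genes, leaving it out narrows their spread. The calls gained without it are a description. Without Csn8AKO replicate 3, 4 or 5 instead, 4 mitochondrial genes were lower each time, against 14 without replicate 2. Over all genes, 2949 of 22754, 2752 of 22600 and 2869 of 22693 were lower without replicates 3, 4 and 5 in turn. Replicate 2 also had the highest adipocyte marker sum (19820 CPM) and the highest brown adipocyte marker sum (8168 CPM) of the 5 Csn8AKO libraries.

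**Figure D3:**
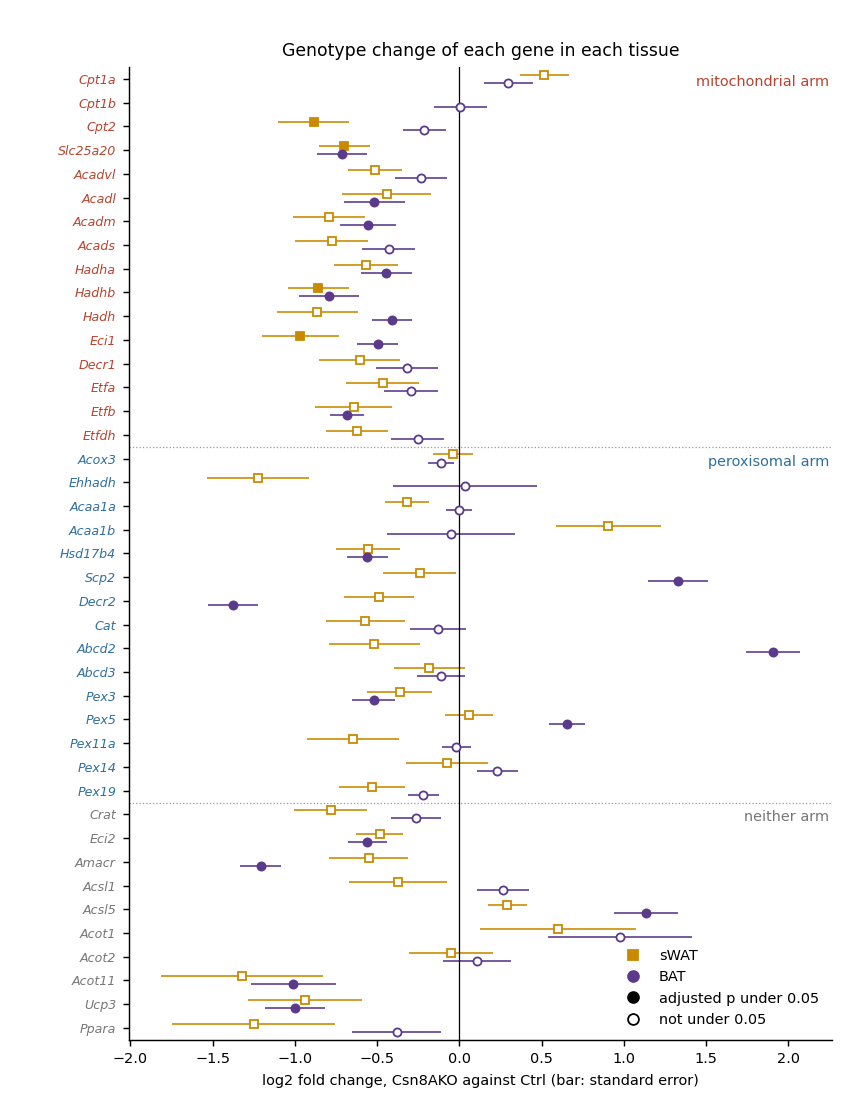
Log2 fold change of each gene in Csn8AKO over Ctrl mice, with its standard error as bars, for sWAT (squares, 4 against 4 libraries) and BAT (circles, 5 against 5). Filled symbols passed an edgeR adjusted p of 0.05. The filled circles of the mitochondrial arm all lie below 0, while those of the peroxisomal arm lie on both sides, with Abcd2 and Scp2 farthest to the higher side and Decr2 farthest to the lower side.

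In the carnitine shuttle of BAT, the translocase changed and the transferases did not pass the test. Slc25a20 was 358, 348, 457, 440.4 and 438 CPM in Ctrl BAT and 211, 366, 227, 216 and 224 CPM in Csn8AKO BAT. Replicate 2 alone of the Csn8AKO libraries reached the Ctrl range, the other 4 being 211 to 227 CPM, and Slc25a20 fell (log2 fold change -0.71, SE 0.15, adjusted p = 0.00265; -0.90 without replicate 2, adjusted p = 1.15e-05). Cpt2, Cpt1a and Cpt1b overlapped between genotypes, with log2 fold changes of -0.21, 0.30 and 0.01 and adjusted p-values of 0.244, 0.149 and 0.982. Without replicate 2 they were -0.35, 0.40 and -0.11, with adjusted p-values of 0.0125, 0.0218 and 0.631, so that Cpt2 was called lower and Cpt1a higher, as in sWAT without its replicate 2.

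All 3 genes of the hydratase, hydroxyacyl-CoA dehydrogenase and thiolase steps fell in BAT. Hadhb was 1645, 1489, 1701, 1596 and 1546 CPM in Ctrl BAT and 785, 1516, 833, 788 and 684 CPM in Csn8AKO BAT. The 4 Csn8AKO libraries other than replicate 2 lay between 684 and 833 CPM, below every Ctrl library, and Hadhb fell (log2 fold change -0.79, SE 0.18, adjusted p = 0.00485; -1.05 without replicate 2). Hadha was 2133, 2114, 2422, 2191 and 2321 CPM in Ctrl BAT and 1457, 2449, 1504, 1455 and 1351 CPM in Csn8AKO BAT. Replicate 2 was above every Ctrl library and the other 4 were below every one, with log2 fold change -0.44, SE 0.15, adjusted p = 0.0404 and -0.63 without replicate 2 (adjusted p = 4.37e-05). Hadh fell by 0.41 on the log2 scale (standard error 0.12, adjusted p = 0.0185). The pseudogene Gm13910, which matches part of Hadhb, was also lower in BAT (log2 fold change -0.83, adjusted p = 0.0257).

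Of the dehydrogenases, Acadl and Acadm fell. Acadm (ENSMUSG00000062908, chromosome 3, 153922357 to 153944632, minus strand) was 1257, 1188, 1599, 1536 and 1293 CPM in Ctrl BAT and 890.5, 1431, 799.7, 803 and 752 CPM in Csn8AKO BAT. The 4 libraries other than replicate 2 were below every Ctrl library (log2 fold change -0.56, SE 0.17, adjusted p = 0.0225). Acadl showed the same arrangement, from 1419.9 to 1743 CPM in Ctrl and 894 to 1799 CPM in Csn8AKO BAT (log2 fold change -0.52, SE 0.18, adjusted p = 0.0448). Its call was lost in 9 of the 10 analyses that left out 1 library, as was that of Hadha, while that of Acadm was lost in 5 and that of Hadh in 3. Acads and Acadvl were -0.43 and -0.23 (adjusted p = 0.0542 and 0.293).

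Electron transfer and unsaturated chains gave 2 further calls. Etfb (ENSMUSG00000004610, chromosome 7, 43444083 to 43457800, plus strand), the beta subunit of the electron transfer flavoprotein, was 81.3, 77.9, 79.8, 91.5 and 83.5 CPM in Ctrl BAT and 48.3, 68.1, 46.6, 47.9 and 47.2 CPM in Csn8AKO BAT. It was the one gene of the mitochondrial arm whose BAT groups did not overlap, replicate 2 included, and it fell by 37.7% (log2 fold change -0.68, SE 0.10, adjusted p = 0.000234). The alpha subunit gene Etfa and the dehydrogenase gene Etfdh overlapped (-0.29 and -0.25, adjusted p = 0.203 and 0.257). Eci1 was 426, 370.3, 458, 448 and 408 CPM in Ctrl BAT and 262, 406, 264, 272 and 294 CPM in Csn8AKO BAT, overlapping through replicate 2 alone, and fell (log2 fold change -0.50, SE 0.12, adjusted p = 0.00742). Decr1 was -0.32 (adjusted p = 0.22). In all, 8 of 16 genes of the arm were lower and 0 higher, with a median of -0.42. At an unadjusted p under 0.05, 9 were lower and 0 higher. DESeq2 gave 9 and 0, limma voom 14 and 0, and without replicate 2 edgeR gave 14 and 1. Over all genes, the unadjusted threshold gave 4619 lower and 4702 higher of 22345, and DESeq2 3891 and 4087 of 40085 genes with any count. The other 2 gave 4507 and 4496 of 22345 by limma voom, and 4106 and 4040 of 22826 without replicate 2.

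Within the peroxisomal arm of BAT, the genes that rose did so in all 5 Csn8AKO libraries. Abcd2 (ENSMUSG00000055782, chromosome 15, 91145871 to 91191799, minus strand) was 34.6, 22.1, 28.4, 33.1 and 26.2 CPM in Ctrl BAT and 119, 142, 76.3, 96.9 and 107 CPM in Csn8AKO BAT. The lowest Csn8AKO library was more than 2 times the highest Ctrl library, and Abcd2 rose 3.75-fold (log2 fold change 1.91, SE 0.17, adjusted p = 5.14e-06; 1.79 without replicate 2). Even so, its level per length in Csn8AKO BAT, 18.6 ± 4.25 CPM per kb (SD, n = 5), was below that of Ctrl sWAT, 87.0 ± 9.96 (SD, n = 4). Its relative Abcd3, which was 61.5 CPM per kb in Ctrl BAT, did not pass the test (log2 fold change -0.11, SE 0.15, adjusted p = 0.611).

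Scp2 (ENSMUSG00000028603, chromosome 4, 108043839 to 108144998, minus strand) was 372, 366, 483, 419 and 401 CPM in Ctrl BAT and 866, 1649, 814, 857 and 937 CPM in Csn8AKO BAT. All 5 Csn8AKO libraries were above all Ctrl libraries, replicate 2 being the highest, and Scp2 rose 2.51-fold (log2 fold change 1.33, SE 0.18, adjusted p = 0.000113; 1.09 without replicate 2). The pseudogene Scp2-ps2, which matches part of its exons, went from 7.43 to 11.6 mean CPM (log2 fold change 0.64, adjusted p = 0.0253), a difference of a few CPM far smaller than that of Scp2. Counts per gene do not tell the transcripts of Scp2 apart, so the rise cannot be assigned to the thiolase. Pex5 (ENSMUSG00000005069, chromosome 6, 124396816 to 124415067, minus strand), the cytosolic receptor that carries matrix enzymes to peroxisomes, was 126, 149, 149, 144 and 191 CPM in Ctrl BAT and 201, 252, 242, 253 and 248 CPM in Csn8AKO BAT. Every Csn8AKO library exceeded the highest Ctrl library, although only narrowly for replicate 1, and Pex5 rose (log2 fold change 0.66, SE 0.11, adjusted p = 0.000468; 0.63 without replicate 2).

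**Figure D4:**
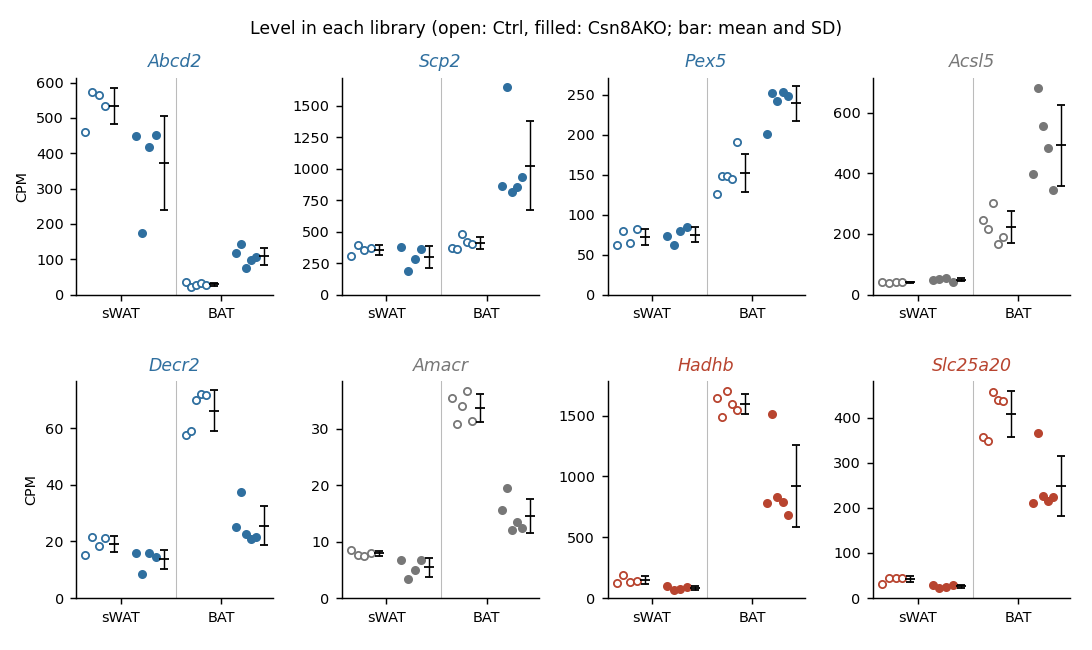
CPM of 8 genes in each library of sWAT and BAT, with open symbols for Ctrl and filled symbols for Csn8AKO mice and bars for the mean and SD (n = 4 per group in sWAT and 5 in BAT). Abcd2, Scp2, Pex5 and Acsl5 are higher in every Csn8AKO BAT library than in any Ctrl BAT library, Decr2 and Amacr are lower in every one, and Hadhb and Slc25a20 are lower in 4 of 5.

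Of the peroxisomal arm, Decr2, Hsd17b4 and Pex3 fell in BAT. Decr2 (ENSMUSG00000036775, chromosome 17, 26081208 to 26090337, minus strand) was 57.7, 59.1, 70.1, 72.3 and 71.9 CPM in Ctrl BAT and 25.1, 37.6, 22.5, 20.7 and 21.8 CPM in Csn8AKO BAT. The highest Csn8AKO library was well below the lowest Ctrl library, and Decr2 fell by 61.5% (log2 fold change -1.38, SE 0.15, adjusted p = 2.4e-05; -1.56 without replicate 2). Hsd17b4 was 308, 305, 377, 361 and 364 CPM in Ctrl BAT and 209.8, 316, 213, 208 and 217 CPM in Csn8AKO BAT. Replicate 2 fell into the Ctrl range and the other 4 lay below it, and Hsd17b4 fell (log2 fold change -0.56, SE 0.12, adjusted p = 0.0034). Pex3, the membrane anchor for Pex19, had the same arrangement, with 45.8, 43.6, 46.2, 38.2 and 49.3 CPM in Ctrl and 28.2, 44.2, 28.0, 29.1 and 26.3 CPM in Csn8AKO BAT (log2 fold change -0.52, SE 0.13, adjusted p = 0.00753).

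The other 9 genes of the arm did not pass the test in BAT, from -0.22 for Pex19 to 0.23 for Pex14. Ehhadh was 102, 129, 128, 147 and 311 CPM in Ctrl BAT and 105, 359, 132, 127 and 114 CPM in Csn8AKO BAT, with 1 library of each genotype far above the rest (Ctrl replicate 5 and Csn8AKO replicate 2), and its log2 fold change of 0.04 had a standard error of 0.44. Acaa1a was at 126 to 149 CPM in Ctrl and 123 to 149.6 CPM in Csn8AKO BAT, overlapping throughout (adjusted p = 0.998). Over the 15 genes of the arm, 3 were lower and 3 higher with a median of -0.05. Both counts are near the shares of all genes, 15.8% lower and 16.0% higher. Without replicate 2, 6 were lower, against 18.0% of all genes, and 3 higher, against 17.7%, with a median of -0.25. The members added without replicate 2 were Acaa1b (-0.60), Cat (-0.34) and Pex19 (-0.28).

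Among the 10 genes of neither arm, 4 fell and 1 rose in BAT, against 15.8% lower and 16.0% higher of all genes. Amacr (ENSMUSG00000022244, chromosome 15, 10981756 to 10996626, plus strand) was 35.4, 30.9, 34.1, 36.7 and 31.4 CPM in Ctrl BAT and 15.5, 19.4, 12.1, 13.5 and 12.5 CPM in Csn8AKO BAT. The groups did not overlap, and Amacr fell by 56.7% (log2 fold change -1.21, SE 0.12, adjusted p = 8.45e-06; -1.33 without replicate 2). Ucp3 (ENSMUSG00000032942, chromosome 7, 100472990 to 100486432, plus strand) was 144, 196, 183, 186 and 305 CPM in Ctrl BAT and 77.5, 121, 92.9, 109.9 and 105 CPM in Csn8AKO BAT. Ctrl replicate 5 was the highest and Csn8AKO replicate 2 came closest to the Ctrl range without entering it, and Ucp3 fell (log2 fold change -1.001, SE 0.18, adjusted p = 0.00123). Acot11 was 315, 309, 594, 402 and 460.0 CPM in Ctrl BAT and 127, 285, 281, 193 and 149 CPM in Csn8AKO BAT. The ranges were adjacent without overlap (log2 fold change -1.01, SE 0.26, adjusted p = 0.0127). Eci2 fell too (log2 fold change -0.56, SE 0.12, adjusted p = 0.00247), with only replicate 2 reaching the Ctrl range.

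Acsl5 (ENSMUSG00000024981, chromosome 19, 55251938 to 55297720, plus strand), an acyl-CoA synthetase of the outer mitochondrial membrane and endoplasmic reticulum, was 245, 216, 303, 168 and 189 CPM in Ctrl BAT and 398, 682, 555, 482 and 345 CPM in Csn8AKO BAT. All Csn8AKO libraries were above all Ctrl libraries, and Acsl5 rose 2.20-fold (log2 fold change 1.13, SE 0.20, adjusted p = 0.00084). Acsl1, the more abundant synthetase, overlapped (0.27, adjusted p = 0.222). Acot1 was 9.18, 15.6, 13.8, 14.0 and 34.5 CPM in Ctrl and 11.6, 37.3, 38.9, 40.0 and 44.0 CPM in Csn8AKO BAT. Ctrl replicate 5 lay close to the higher Csn8AKO libraries and Csn8AKO replicate 1 lay in the Ctrl range, and the difference was not called (log2 fold change 0.98, SE 0.44, adjusted p = 0.123). Acot2, its neighbour and near-copy, had the same 2 libraries out of place (0.11, adjusted p = 0.741). Ppara was 332 to 420.1 CPM in Ctrl BAT, against 202, 546, 177, 245 and 256 CPM in the Csn8AKO libraries, and was called lower without replicate 2 (log2 fold change -0.38, SE 0.27, adjusted p = 0.321 with it; log2 fold change -0.76, adjusted p = 0.000172 without it).

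Since PPAR-alpha and related receptors bind repeats of the motif AGGTCA, the promoter windows of the members were searched for it on both strands. RefSeq windows of 300 bases were found for 34 of the 41 genes, and 6 of them (17.6%) held the motif, against 18.1% of 27025 genes. A pair of such motifs in the same direction with 1 base between them was found in 0 of the 34 and in 13 of all the genes (0.0481%). A pair this rare would hardly be met in 34 genes, so its absence carries no information. Only exact matches inside these windows were counted, so inexact or more distant sites were not searched. The motif-bearing windows of Scp2, which rose in BAT, and Ucp3, which fell there, are shown with AGGTCA in capitals, at chr4:108118498-108118797 on the minus strand and chr7:100472741-100473040 on the plus strand (GRCm38.p6). The RefSeq start of Scp2 used for its window lies inside the span counted for the gene.
Scp2: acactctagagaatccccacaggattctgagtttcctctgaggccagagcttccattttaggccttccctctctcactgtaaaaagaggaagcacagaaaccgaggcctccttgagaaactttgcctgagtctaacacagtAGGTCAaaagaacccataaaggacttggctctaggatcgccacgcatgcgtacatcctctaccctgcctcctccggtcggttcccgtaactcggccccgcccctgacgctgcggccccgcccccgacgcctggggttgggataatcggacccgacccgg
Ucp3: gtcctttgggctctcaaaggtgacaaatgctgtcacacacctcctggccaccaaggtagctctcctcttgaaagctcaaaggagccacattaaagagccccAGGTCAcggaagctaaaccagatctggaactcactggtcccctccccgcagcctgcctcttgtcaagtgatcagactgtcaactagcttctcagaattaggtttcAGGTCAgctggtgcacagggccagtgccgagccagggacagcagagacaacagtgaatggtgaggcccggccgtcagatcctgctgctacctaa

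Both arms can be set side by side in each library through the median over their genes of log2 CPM relative to the mean Ctrl level of the tissue. In sWAT the mitochondrial median was -0.39, -1.23, -0.79 and -0.48 in Csn8AKO replicates 1 to 4, and the peroxisomal median was -0.27, -0.95, -0.29 and -0.15. The mitochondrial value was the lower one in all 4, by 0.12 to 0.50, while the difference of the 2 medians was -0.06 to 0.07 in Ctrl libraries. In BAT the mitochondrial medians of Csn8AKO replicates 1 to 5 were -0.56, 0.15, -0.54, -0.63 and -0.60, and the peroxisomal medians were -0.27, 0.20, -0.25, -0.10 and -0.26. Replicate 2 was the one Csn8AKO library with both medians above 0, and its difference of -0.05 lay within the Ctrl range of -0.11 to 0.14, unlike those of the other 4. These medians are a description and were not tested.

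**Figure D5:**
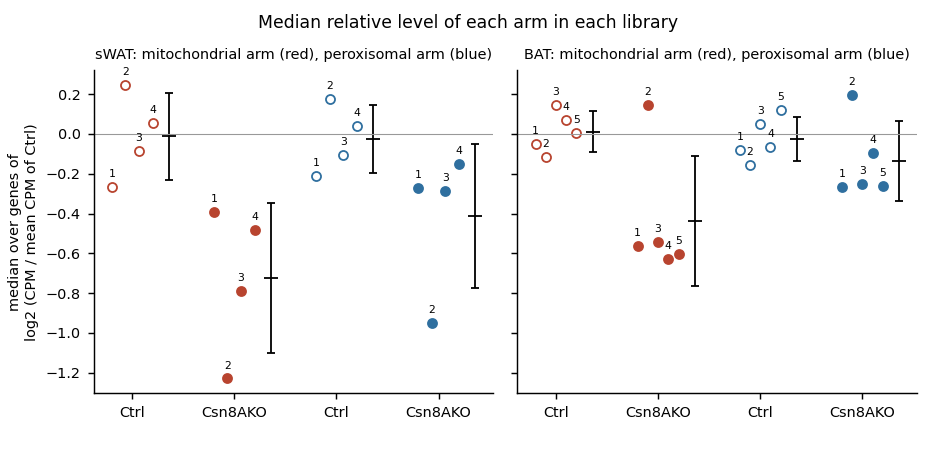
Median log2 CPM relative to the mean Ctrl level over the genes of the mitochondrial arm and of the peroxisomal arm, per library, in sWAT and BAT, with open symbols for Ctrl, filled symbols for Csn8AKO mice, replicate numbers beside them, and bars for the mean and SD. The Csn8AKO mitochondrial medians lie lower than the peroxisomal ones, and replicate 2 is the lowest Csn8AKO library in sWAT and the highest in BAT.

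The difference between the BAT change and the sWAT change was tested in one fit of all 18 libraries, and it passed for 2 genes, both peroxisomal and both more positive in BAT, against 1.61% of 22509 genes. Abcd2 differed by 2.40 on the log2 scale (standard error 0.33, adjusted p = 0.000578) and Scp2 by 1.56 (standard error 0.31, adjusted p = 0.00953). None was more negative in BAT by edgeR, against 0.755% of all genes. At an unadjusted p under 0.05 there were 2, against 1491 of 22509 genes. DESeq2 gave 0, against 360 of 42025 genes with any count, and limma voom 2, against 331 of 22509. Those 2 at the unadjusted threshold were Decr2 (-0.90, adjusted p = 0.095) and Amacr (-0.67, adjusted p = 0.195). For the 8 mitochondrial genes that fell in BAT the tissue difference was not called, so a larger change in either tissue was not shown.

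Further genes of the same pathways were taken as 3 lists, of mitochondrial oxidation genes, peroxisomal genes and regulators that are not among the 41. The lists were chosen with earlier results of these data known, so their counts beside the background are a description only. In the background, 3.00% of all genes were called lower and 2.30% higher in sWAT, and 15.8% lower and 16.0% higher in BAT. Of 20 other mitochondrial oxidation genes tested in sWAT, 8 were lower and 0 higher (15 lower and 0 higher at an unadjusted p under 0.05), and of 21 tested in BAT, 11 were lower and 1 higher. The lower shares were above these backgrounds in both tissues, and the higher share in BAT was below it. The median log2 fold changes were -0.64 in sWAT and -0.43 in BAT, and in sWAT DESeq2 called 9 lower and 0 higher and limma voom 11 and 0. Acsm3, a medium-chain acyl-CoA synthetase, fell from 17.5 ± 6.35 to 0.655 ± 0.122 CPM in sWAT (SD, n = 4; log2 fold change -4.72, SE 0.31, adjusted p = 0.000138). Acad10 and Acad12, acyl-CoA dehydrogenase family genes, fell in both tissues, by 1.22 and 1.47 on the log2 scale in sWAT and by 0.92 and 1.62 in BAT. Cpt1c, the brain-type CPT1, was the one that rose in BAT (log2 fold change 0.67, SE 0.21, adjusted p = 0.0228). Acaa2, the mitochondrial thiolase of medium chains, was chosen after its values were seen and fell in both (-0.997, adjusted p = 0.0318, and -1.05, adjusted p = 0.000149).

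Of 39 other peroxisomal genes tested in sWAT, 7 were lower and 0 higher (16 lower and 1 higher at an unadjusted p under 0.05), and of 41 tested in BAT, 22 were lower and 5 higher. Against the backgrounds given above, the lower share was above in both tissues, and the higher share in BAT was slightly below. Here the medians were -0.39 in sWAT and -0.30 in BAT, and in sWAT DESeq2 called 8 lower and 2 higher and limma voom 9 and 0. Pxmp2, a peroxisomal membrane channel, and Phyh, the enzyme that starts phytanic acid breakdown, fell in sWAT (-1.98 and -1.38, adjusted p = 0.00695 and 0.00565). In BAT the leading lower genes were Phyh (401 ± 13.7 against 199 ± 37.7 CPM, SD, n = 5; -1.01) and Nudt12, a NADH-cleaving enzyme of peroxisomes (-1.56). The leading higher genes were Far1, which makes fatty alcohols for ether lipids (0.53, adjusted p = 0.000293), and Slc25a17, a peroxisomal cofactor carrier (0.62, adjusted p = 0.00132).

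Of 12 regulators tested, 1 was lower and 0 higher in sWAT (3 lower and 0 higher at an unadjusted p under 0.05), and 3 were lower and 1 higher in BAT. These are 1 to 3 genes against backgrounds of 3.00% lower in sWAT and 15.8% lower and 16.0% higher in BAT, from which so short a list cannot be set apart. Their medians were -0.22 and -0.08, and in sWAT both DESeq2 and limma voom called 3 lower and 0 higher. Prdm16, a coregulator of brown and beige adipocytes, fell in sWAT (log2 fold change -1.37, SE 0.23, adjusted p = 0.00903). In BAT, Angptl4, a lipoprotein lipase inhibitor induced by PPARs, and Ppargc1b, a coactivator of oxidative genes, fell (-1.16 and -0.48, adjusted p = 6.16e-05 and 0.00472), and Nrf1 rose (0.30, adjusted p = 0.0245).

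Other cell types moved with the BAT groups as well. Summed adipocyte markers were 20117 to 23638 CPM in Ctrl and 17237 to 19819.6 CPM in Csn8AKO BAT, a smaller gap than in sWAT, with 4 of 15 lower, 2 higher and a median of -0.15. Brown adipocyte markers summed to 3369.5 to 6920 CPM in Ctrl and 4046 to 8168 CPM in Csn8AKO BAT, overlapping. Of these 10 markers, 2 were lower and 1 higher, with a median of 0.31. Macrophage markers were 107 to 144 against 303 to 407 CPM, with 10 of 12 higher, and all 8 fibroblast and progenitor markers were higher. Skeletal muscle markers reached 176 and 306 CPM in Csn8AKO replicates 1 and 5, against 14.7 to 45.8 CPM in the other BAT libraries. Without these 2 libraries, 9 of the oxidation genes were lower and 4 higher, beside 2743 lower and 2560 higher of 23109 genes. The calls of Acadl, Acadm, Hadha, Hadh, Eci1 and Pex3 were lost. The marker lists of muscle, macrophages and fibroblasts share no gene with the 41, which does not show whether these cells express the members. The part of these cells in the results was not tested.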

How the data were processed

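RNA from 18 mouse libraries had been sequenced after ribosomal RNA depletion, and the authors aligned reads with STAR 2.7.9a to the Ensembl primary assembly (GRCm38) and counted uniquely aligned, unambiguous reads per gene with featureCounts. The deposited files held raw counts per gene and, beside them, CPM, FPKM and TPM columns that the authors had derived from those counts. Only the deposited counts were used, and the deposited CPM, FPKM and TPM values were checked against the counts and otherwise left out. Whether counting used strand is not given in the sources used here.

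Counts were tested per tissue with edgeR 4.0.16 (quasi-likelihood test, trimmed mean of M values, filterByExpr with a count minimum of 10) in R 4.3.3, fitted on all genes, with Benjamini-Hochberg adjustment over all genes tested and a threshold of 0.05. A fit of all 4 groups gave the difference between tissues. CPM in the text were recomputed from the counts with these scaling factors. The study's own design of Csn8AKO against Ctrl within a tissue was kept. DESeq2 1.42.0 and limma 3.58.1 (voom with quality weights) were alternatives, among 72 planned and 3 that were added after seeing the data (leaving out libraries with high lymphocyte or muscle markers). On simulated counts, genes changed by 1 on the log2 scale were found in 21% of cases in sWAT (18843 genes), 66% in BAT (22345 genes) and 28% for the tissue difference (22509 genes). Of the simulated calls, 7.21%, 8.14% and 4.50% were false. Only 100 genes were changed by 1 and 100 by 2, fewer than the 1000 and 7121 genes called in sWAT and BAT, so recovery in the data may differ. No 2 libraries were duplicates. Figures were drawn with matplotlib 3.10.9 under Python 3.11.15.

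The members and gene lists were chosen with earlier results of these data known. Named genes were all 41 members, for each pathway list and tissue the 2 called genes with the lowest adjusted p among those lower and among those higher, Cops8 and the markers. Promoter windows came from RefSeq (GRCm38.p6).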

Additional observations from a re-analysis of the deposited data

Results flagged for a closer look

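In groups of 4 or 5 libraries, a value was taken up here when its gap to the nearest other library was large for the range of its group (Dixon test at the 95% level), which chance does in about 1 of 20 groups. Of 164 combinations of gene and group, 36 met this, and 25 of the 36 were the high value of Csn8AKO BAT replicate 2. In the mitochondrial arm, its levels were Cpt2 448.9, Slc25a20 366.2, Acadvl 1275, Acadl 1799, Acadm 1431, Acads 433.6, Hadha 2449, Hadhb 1516, Hadh 1074, Eci1 406.0, Decr1 536.2, Etfa 869.5, Etfb 68.12 and Etfdh 876.9 CPM. In the peroxisomal arm they were Ehhadh 358.7, Acaa1b 89.25, Hsd17b4 315.6, Scp2 1649, Decr2 37.57, Cat 1012, Pex3 44.19 and Pex19 209.1 CPM. Outside both arms they were Crat 1099, Eci2 80.81 and Ppara 545.8 CPM. Other libraries that stood apart were few. Ctrl sWAT replicate 1 was low for Slc25a20 (32.09 CPM). Csn8AKO sWAT replicate 2 was low for Acadvl (38.25 CPM), Abcd2 (174.3 CPM) and Abcd3 (41.46 CPM). Ctrl BAT replicate 5 was high for Ehhadh (310.7 CPM), Acot1 (34.45 CPM) and Acot2 (85.8 CPM). Csn8AKO BAT replicate 1 was low for Pex5 (200.9 CPM), Acot1 (11.57 CPM) and Acot2 (35.42 CPM). Ctrl sWAT replicate 2 was high for Acot11 (17.27 CPM).

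The change in Csn8AKO mice differed between BAT and sWAT for 2 members in the test of that difference (edgeR, all 4 groups), by 1.56 on the log2 scale for Scp2 and by 2.40 for Abcd2. Scp2 was higher in all 5 Csn8AKO BAT libraries than in any Ctrl BAT library and overlapped in sWAT, and Abcd2 was higher in all 5 Csn8AKO BAT libraries and lower in all 4 Csn8AKO sWAT libraries than in any Ctrl library of the same tissue.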

How the results depend on the processing

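No call became a call of the opposite sign under any setting. In sWAT, 4 members were lower in Csn8AKO mice. This count was 2 with scaling by library size alone (0 mitochondrial, 1 peroxisomal and 1 of neither arm). It was 7 without the filter on low counts, 9 by DESeq2 and 11 by limma voom. It was 11 with all 4 groups in one fit, and 0 to 7 when 1 library was left out. Calls over all genes in sWAT were 1000 in the main fit, 434 by library size alone, 1013 without the filter and 1822 by DESeq2. They were 2155 by limma voom, 2463 with all 4 groups in one fit, and 326 to 1477 when 1 library was left out. The count of members higher in sWAT went from 0 to 1 by DESeq2, 2 by limma voom and 0 to 2 when 1 library was left out. In BAT, 15 were lower, against 24 by limma voom and 11 to 26 when 1 library was left out, and 4 were higher, against 4 to 6. Calls over all genes in BAT were 7121 in the main fit and 9003 by limma voom (4507 lower and 4496 higher). They were 5723 to 8146 when 1 library was left out. The peroxisomal median in BAT of -0.05 ranged from -0.25 (without Csn8AKO replicate 2) to 0.034. For the difference between tissues, members more negative in BAT went from 0 to 2 by limma voom and 0 to 2 when 1 library was left out. Of the alternatives added after seeing the data, 1 left out the 2 sWAT libraries highest in lymphocyte markers. It gave 11 lower and 1 higher, beside 827 lower and 993 higher of 18547 genes. Without the 2 sWAT libraries highest in muscle markers 0 were lower, beside 231 of 19370 genes. Without the 2 BAT libraries highest in muscle markers 9 were lower, beside 2743 of 23109 genes. The cause was not tested.

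With the replicate number as a replicate block, 1 member was lower in sWAT, a peroxisomal gene, and 15 were lower and 5 higher in BAT. Same-numbered libraries did not deviate together (correlations of -0.42 to 0.24 in sWAT and -0.13 to 0.14 in BAT), so that the numbers do not pair the mice. Over all genes, the block called 299 genes in sWAT (1000 without it) and 6776 in BAT (7121 without it).

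Of the 4 sWAT calls, 0 held in all 18 alternatives, of the 19 BAT calls 13 held in all 19, and both tissue differences held in all 24. Scaling by library size alone moved the median of all genes in BAT from 0.01 to 0.14 on the log2 scale and the share of lower calls from 49.7% to 33.3%. In sWAT that share went from 56.6% to 75.6%. At 4 libraries a group, most changes of 1 on the log2 scale were missed in simulation, which limits the sWAT counts.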
